A study of Mus musculus with 16 samples.

Results

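The interferon-inducible GTPases described here are 10 mouse genes of the immunity-related GTPase (IRG) and guanylate-binding protein (GBP) families, measured by RNA sequencing of liver. They were chosen by symbol, as the rows of the deposited expression table named *Tgtp1* (ENSMUSG00000078922), *Tgtp2* (ENSMUSG00000078921), *Igtp* (ENSMUSG00000078853), *Irgm1* (ENSMUSG00000046879), *Irgm2* (ENSMUSG00000069874), *Iigp1* (ENSMUSG00000054072), *Gbp2* (ENSMUSG00000028270), *Gbp3* (ENSMUSG00000028268), *Gbp6* (ENSMUSG00000104713) and *Gbp7* (ENSMUSG00000040253). All 10 symbols were found among 18209 rows with a gene identifier. All 10 had at least 10 normalized reads in each of the 16 libraries, so none entered the tests through one genotype alone.

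The livers were labelled as from male mice of 20 days of age, with 4 libraries in each of 4 genotypes. Every mouse, controls included, carried 2 floxed alleles of *Trsp*, the gene of the selenocysteine tRNA that is needed to make selenoproteins. The control was Trspfl/fl. The *Trsp* knockout, labelled Trspfl/fl::AlbCre, also carried a Cre recombinase under the albumin promoter, which deletes *Trsp* in hepatocytes and leaves it in the other cells of the liver. The *Keap1* mutant, labelled Keap1C226SC613Shomo::Trspfl/fl, had serine in place of cysteine 226 and cysteine 613 of KEAP1, the stress sensor that holds the transcription factor NRF2 in check, on both alleles. The compound mutant, labelled Keap1C226SC613Shomo::Trspfl/fl::AlbCre, carried both changes. The study asked how KEAP1 senses the loss of selenoproteins, and the same libraries give the GTPase genes in whole liver, where fewer cells of a type and less RNA per cell cannot be told apart.

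Albumin, the marker of hepatocytes, took 4.89% to 10.8% of the reads of a library. Its share was 7.86% to 9.36% in the control and 6.91% to 9.20% in the *Trsp* knockout. In the *Keap1* mutant it was 8.68% to 10.8%, above all compound mutant libraries (4.89% to 7.70%). Libraries held between 11324808 and 19106187 reads on rows with an identifier, with a median of 15449269. *Gpx1*, a selenoprotein gene, lay between 11.43 and 11.99 on the log2 scale in the *Trsp* knockout and between 11.50 and 11.85 in the compound mutant, below the control (13.09 to 14.20) and the *Keap1* mutant (13.34 to 13.95). Compound mutant library 1 held 28799 reads on *Xist*, an RNA of the inactive X chromosome of females, against 22 to 50 in the other 15 libraries. This goes against the label of male mice, and the main fitted differences of the compound mutant are also given without it. The labels number the 4 libraries of a genotype and do not name the animals, so p-values measure the spread between these libraries.

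Interferon-gamma acts through a receptor with JAK kinases and switches on IRG and GBP genes through gamma-activated sites (GAS) in their promoters. Type I interferons act mainly through interferon-stimulated response elements (ISRE). The proteins guard cells against pathogens that live in vacuoles. Irgm1, Irgm2 and Igtp (also called Irgm3) sit on the membranes of the cell and hold the other IRG proteins in an inactive state there, Tgtp and Iigp1 load onto the vacuole membrane of a parasite, and GBP proteins join them there. In liver, hepatocytes as well as macrophages and endothelial cells make them after interferon.

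The promoters are shown first, since all the members with an entry carry one of these elements and a subset of them carries both in one arrangement. The RefSeq promoter table (GRCm38.p6, 250 bases before to 50 after a gene start) held windows of 8 of the 10 genes, and none of *Gbp6* and *Iigp1*. The search was for GAS spelled TTCNNNGAA, which reads the same on both strands, and for ISRE spelled GAAANNGAAA on either strand, and matches of the same motif may overlap. Each sequence runs 5′ to 3′ on the strand of the gene, with the matched letters in capitals.
Tgtp1, chr11:48992302-48992346, minus strand: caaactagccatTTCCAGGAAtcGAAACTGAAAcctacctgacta
Tgtp2, chr11:49064261-49064305, minus strand: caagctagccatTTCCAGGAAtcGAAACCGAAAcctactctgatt
Igtp, chr11:58199499-58199543, plus strand: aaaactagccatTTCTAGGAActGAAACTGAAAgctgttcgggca
Irgm2, chr11:58214890-58214934, plus strand: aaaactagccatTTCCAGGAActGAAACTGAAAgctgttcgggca
Irgm1, chr11:48871423-48871462, minus strand: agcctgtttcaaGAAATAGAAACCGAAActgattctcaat
Gbp2, chr3:142620592-142620625, plus strand: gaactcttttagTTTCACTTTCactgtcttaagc
Gbp3, chr3:142559987-142560026, plus strand: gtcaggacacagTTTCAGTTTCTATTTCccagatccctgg
Gbp7, chr3:142530218-142530304, plus strand: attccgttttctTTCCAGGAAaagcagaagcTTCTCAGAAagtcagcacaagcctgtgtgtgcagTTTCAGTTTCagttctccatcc

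All 8 genes had an ISRE match, a motif found in 3.44% of 32851 promoter windows. A GAS match was found in 5 of the 8, against 8.3% of all windows. In *Tgtp1*, *Tgtp2*, *Igtp* and *Irgm2* the GAS and the ISRE lay in one order with 2 bases between them, read as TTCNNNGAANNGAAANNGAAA. This joined form was defined after the sequences of these genes had been seen. It was present in 5 of 32851 windows on either strand (0.0152%), and the gene beside these 4 was *Gm12185*, another IRG gene. It began 88 bases upstream of the gene start in *Tgtp1*, 81 in *Tgtp2*, 75 in *Irgm2* and 45 in *Igtp*. *Irgm1* and *Gbp3* each held a pair of overlapping ISRE matches and no GAS match, *Gbp2* a single ISRE match, and *Gbp7* a pair of GAS matches farther from its ISRE match. A match is a string of letters in this window and was not tested as a binding site. *Gbp3* has a further window, which held neither motif.

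The genes lie in clusters. The RefSeq annotation puts *Irgm1*, *Tgtp1*, *Tgtp2*, *Igtp* and *Irgm2* on chromosome 11, with *Igtp* next to *Irgm2* and only 9930111J21Rik2 between *Tgtp1* and *Tgtp2* among coding genes. *Gbp7* and *Gbp3* are neighbours on chromosome 3, and *Gbp2b* lies between *Gbp3* and *Gbp2*. *Gbp6* is beside *Gbp10* on chromosome 5 and *Iigp1* beside *F830016B08Rik* on chromosome 18.

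Near-identical copies limit what single rows say. *Tgtp1* shared 92.9% of the 31-base words of its longest coding transcript with *Tgtp2*, and *Tgtp2* shared 93.3% of its own with *Tgtp1*. *Gbp6* shared 94.4% with other genes, mostly with *Gm43302*. Values of these 3 rows depend on how Salmon divided the reads, and *Tgtp1* and *Tgtp2* are therefore also given as a sum. The other 7 shared between 2.92% and 16.4% of their words with another gene.

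Values are log2 of normalized reads plus 4, as deposited. The mean log2 level was highest in the *Keap1* mutant and second in the control for all 10 genes. Below them, the *Trsp* knockout was above the compound mutant for 7 genes, and these genotypes were in the other order for *Tgtp1*, *Tgtp2* and *Gbp2*. No member was called by limma between neighbours in this order, namely the *Keap1* mutant and the control, the control and the *Trsp* knockout or compound mutant, and the *Trsp* knockout and the compound mutant. The 95% confidence interval of the difference between *Keap1* mutant and control nevertheless lay above 0 for *Tgtp1*, *Tgtp2*, *Igtp*, *Irgm1* and *Irgm2*. Genes are called where the log2 fold change exceeded 1 in size and the limma p, adjusted by Benjamini-Hochberg over the 15781 genes tested, was under 0.01, the limits used in the study.

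**Figure D1:**
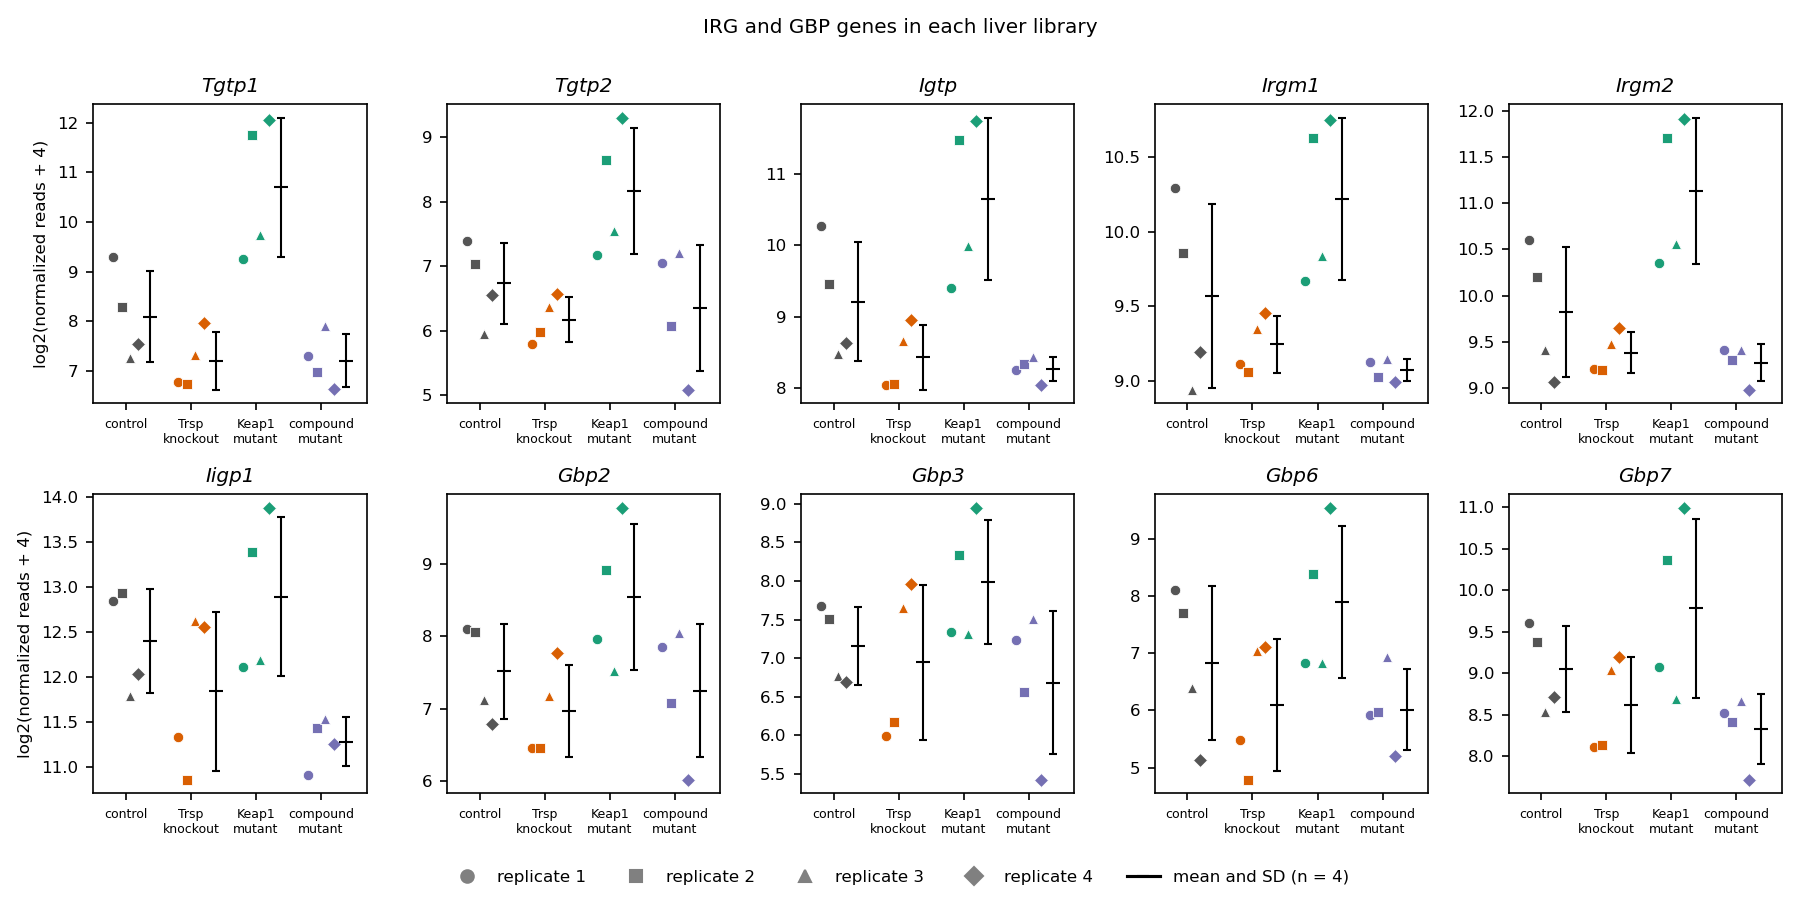
Level of each IRG and GBP gene in the 16 liver libraries, as log2 of normalized reads plus 4, with one point shape per replicate number and the mean and SD (n = 4) beside each genotype. *Keap1* mutant libraries 2 and 4 are the highest points of all 10 genes, and each panel has its own vertical scale.

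Among the regulatory IRG genes, *Igtp* stood at 10.27, 9.47, 8.48 and 8.64 in control libraries 1 to 4 and at 8.05, 8.06, 8.67 and 8.95 in the *Trsp* knockout. It reached 9.40, 11.47, 9.99 and 11.74 in the *Keap1* mutant and stayed at 8.26, 8.34, 8.44 and 8.04 in the compound mutant. All *Keap1* mutant libraries lay above all compound mutant libraries, and the *Keap1* mutant and control groups overlapped. The fitted log2 difference of *Igtp* between compound and *Keap1* mutant was -2.38 (95% confidence interval -3.37 to -1.39, limma adjusted p = 0.024), which misses the threshold of 0.01.

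*Irgm2*, which holds effector IRG proteins inactive at the Golgi, was at 10.61, 10.20, 9.41 and 9.06 in the control and at 9.20, 9.19, 9.47 and 9.65 in the *Trsp* knockout. The *Keap1* mutant libraries were at 10.35, 11.71, 10.55 and 11.91, and the compound mutant libraries at 9.41, 9.30, 9.41 and 8.98. These last groups were again apart, by a fitted difference of -1.86 (limma adjusted p = 0.02, standard error 0.35). *Irgm1*, which sits on lysosomes and Golgi membranes and whose loss makes mice prone to mycobacteria, moved over a narrower range. Its values were 10.29, 9.86, 8.94 and 9.19 in the control, 9.11, 9.06, 9.35 and 9.46 in the *Trsp* knockout, 9.67, 10.62, 9.84 and 10.74 in the *Keap1* mutant, and 9.13, 9.03, 9.15 and 8.998 in the compound mutant. The 4 compound mutant libraries had an SD of 0.07 on the log2 scale and lay below every *Keap1* mutant library (log2 fold change -1.14, limma adjusted p = 0.066).

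*Tgtp1*, an effector that coats parasite vacuoles, had the widest range among genotypes. In normalized reads it was at 623, 311, 149 and 183 in the control and at 105, 104, 155 and 247 in the *Trsp* knockout. The *Keap1* mutant libraries held 610, 3433, 855 and 4219 normalized reads, and the compound mutant libraries 154, 123, 236 and 96.0. The lowest *Keap1* mutant library was above the highest compound mutant library. The fitted level was 11.2-fold lower in the compound mutant than in the *Keap1* mutant on the log2(normalized reads + 4) scale (log2 fold change -3.49, 95% confidence interval -4.72 to -2.26, limma adjusted p = 0.0096). *Tgtp1* was the one member called in any comparison, close to the threshold.

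That call rested on the exact set of libraries. It was kept without control library 1, control library 3 or *Keap1* mutant library 1, and was lost when any of the other 13 libraries was left out, with limma adjusted p between 0.0053 and 0.046 over the 16 fits and log2 fold changes between -3.97 and -3.04. Without compound mutant library 1, the one with *Xist* reads, *Tgtp1* was at -3.52 with a limma adjusted p of 0.032. The call was also lost when *Tgtp1* and *Tgtp2* were summed (log2 fold change -3.10, limma adjusted p = 0.017). The sum held 788, 438, 207 and 272 normalized reads in the control, 157, 163, 234 and 338 in the *Trsp* knockout, 750, 3828, 1038 and 4846 in the *Keap1* mutant, and 283, 186, 379 and 126 in the compound mutant, so that the *Keap1* mutant and compound mutant groups stayed apart.

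*Tgtp2*, with a longest coding transcript of 2810 bases against 2823 for *Tgtp1*, had fewer normalized reads than *Tgtp1* in all 16 libraries. It was at 7.17, 8.64, 7.55 and 9.30 in the *Keap1* mutant and at 7.05, 6.08, 7.20 and 5.09 in the compound mutant, where these groups overlapped. The share of *Tgtp1* in the summed reads was between 81.3% and 89.7% in the *Keap1* mutant and between 54.5% and 79.1% in the other 12 libraries. *Iigp1*, the effector whose GTP-driven assembly on vacuoles is best studied, had the highest level of the 10 per kilobase of its longest coding transcript. Its mean was 1836 normalized reads per kilobase in the control, 1339 in the *Trsp* knockout, 2799 in the *Keap1* mutant and 805 in the compound mutant. In log2 values its *Keap1* mutant libraries (12.11, 13.39, 12.18 and 13.89) were above its compound mutant libraries (10.91, 11.43, 11.53 and 11.26), and its control and *Trsp* knockout libraries lay from 11.79 to 12.94 and from 10.85 to 12.62. The fitted difference between the former groups was -1.61 (limma adjusted p = 0.11, standard error 0.44).

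The 4 GBP genes differed between compound and *Keap1* mutant by -1.88 to -1.29, and none was called. *Gbp2*, a GBP that gathers on vacuoles of bacteria and of Toxoplasma, was at 7.96, 8.91, 7.53 and 9.78 in the *Keap1* mutant and at 7.85, 7.08, 8.04 and 6.02 in the compound mutant. *Gbp3* was at 7.34, 8.34, 7.31 and 8.95 against 7.23, 6.57, 7.51 and 5.43 in the same genotypes. For both genes compound mutant library 3 was above at least one *Keap1* mutant library, so the groups overlapped. The log2 fold changes were -1.29 for *Gbp2* and -1.30 for *Gbp3* (limma adjusted p = 0.28 and 0.29).

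*Gbp7* was at 9.07, 10.37, 8.68 and 10.996 in the *Keap1* mutant and at 8.52, 8.42, 8.66 and 7.71 in the compound mutant. These groups were narrowly apart, since *Keap1* mutant library 3 stood just above compound mutant library 3 (log2 fold change -1.45, limma adjusted p = 0.14). *Gbp6* varied most within genotypes. Its control libraries were at 8.11, 7.70, 6.39 and 5.13, its *Trsp* knockout libraries at 5.48, 4.79, 7.04 and 7.11, its *Keap1* mutant libraries at 6.83, 8.39, 6.82 and 9.55, and its compound mutant libraries at 5.93, 5.98, 6.94 and 5.21. In normalized reads this was an 8.75-fold range among the controls. The log2 fold change between compound and *Keap1* mutant was -1.88 (limma adjusted p = 0.27).

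Deletion of *Trsp* on the *Keap1* mutant background was thus the comparison in which the family differed most. All 10 fitted differences were below 0, with a median of -1.71 against -0.00488 over all genes tested, of which 50.7% were below 0. All 10 had an unadjusted limma p under 0.05, as did 13.6% of all genes. Here and in the other comparisons, the 10 genes share their libraries and are not independent observations. *Tgtp1* was called lower, as was 0.101% of all genes, and *Igtp* and *Irgm2* joined it at an adjusted p under 0.05, which 0.279% of all genes met on the lower side. The groups did not overlap for *Tgtp1*, *Igtp*, *Irgm1*, *Irgm2*, *Iigp1* and *Gbp7*, and they were apart in this direction for 3.71% of all genes. The median difference was -1.83 over the 6 IRG genes and -1.38 over the 4 GBP genes. Without compound mutant library 1 the 10 differences ran from -3.52 to -1.16 with a median of -1.68, and *Tgtp1* was the one under an adjusted p of 0.05.

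*Keap1* mutant libraries 2 and 4 carried the largest values. Leaving out library 4 moved the median of the 10 differences to -1.31, and leaving out library 2 moved it to -1.55. Neither brought any of the 10 to 0 or above, since the lowest members in size were then at -0.883 and -1.01. By definition the other *Keap1* mutant libraries, 1 and 3, lay above every compound mutant library for the 6 genes whose groups were apart. For *Tgtp2*, *Gbp2*, *Gbp3* and *Gbp6*, *Keap1* mutant library 1, library 3 or both lay below compound mutant library 3.

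**Figure D2:**
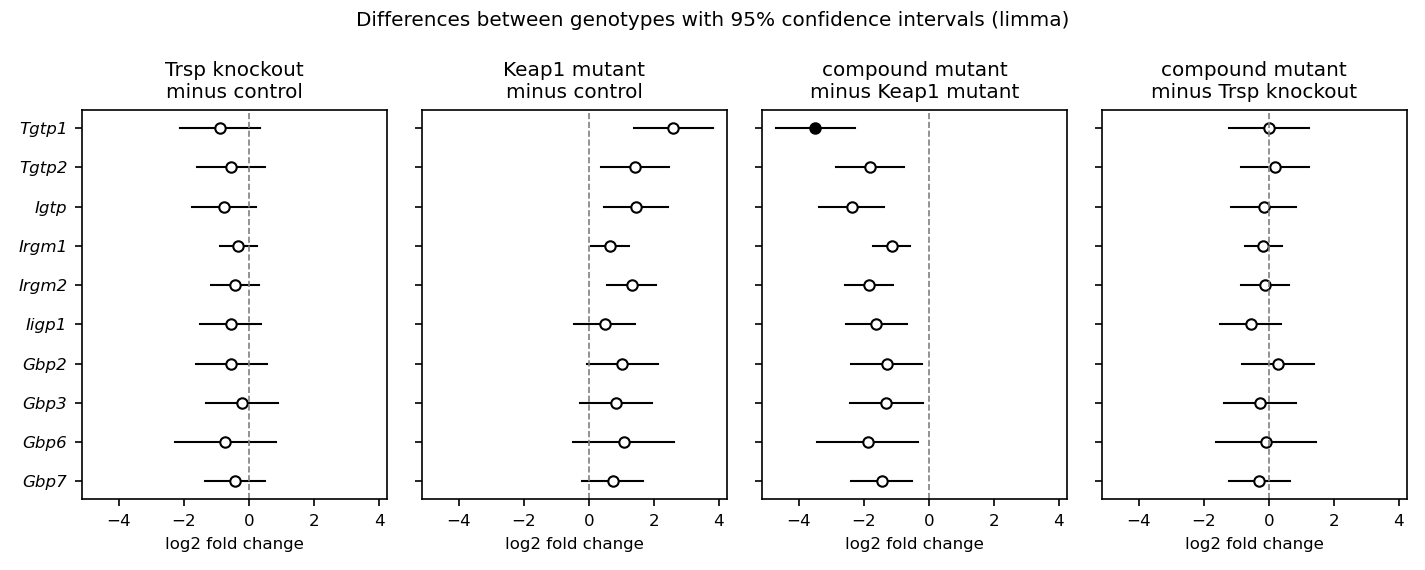
Log2 fold change of each IRG and GBP gene in 4 comparisons, with points for the limma estimate, lines for its 95% confidence interval and a filled point where the gene was called. The intervals lie below 0 for all 10 genes between compound mutant and *Keap1* mutant, and cross 0 for all 10 in both comparisons with the *Trsp* knockout.

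The substitutions alone gave higher values that did not pass the test. All 10 genes were above the control in the *Keap1* mutant by their fitted difference, by a median of 1.05, against 48.9% of all genes above 0. That median was 0.57 without *Keap1* mutant library 4 and 1.40 without *Keap1* mutant library 3, the lowest and highest of the 16 fits that left out one library. None was called, against 0.00634% of all genes called higher. The differences were 2.60 for *Tgtp1* (95% confidence interval 1.38 to 3.83, limma adjusted p = 0.13), 1.44 for *Igtp*, 1.43 for *Tgtp2* and 1.31 for *Irgm2*, and the smallest was 0.49 for *Iigp1*. With an unadjusted limma p, 5 of the 10 were under 0.05, all of them IRG genes, against 9.07% of all genes. The groups overlapped for all 10 genes, against 3.19% of all genes apart on the higher side, because control library 1 stood above at least one *Keap1* mutant library of each. This comparison and the one before share the *Keap1* mutant libraries, so their opposite signs are not independent of each other.

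With normal KEAP1, deletion of *Trsp* gave differences between -0.90 (*Tgtp1*) and -0.22 (*Gbp3*), with a median of -0.56. All 10 were below 0, as were 52.3% of all genes. Without control library 1 the median was -0.32 and *Tgtp1* was at -0.50, and without *Trsp* knockout library 2 the median was -0.33. *Gbp3* was at 0.10 without *Trsp* knockout library 1 and at 0.04 without library 2. The groups overlapped for all 10, where 2.62% of all genes were apart on the lower side, and none was called, against 0.0253% of all genes called lower. No gene of the 10 had an unadjusted limma p under 0.05 (background 11%), and the 95% confidence intervals reached from -2.28 to 0.89. The effect of the deletion in the *Keap1* mutant minus that with normal KEAP1, tested as an interaction, was below 0 for all 10 genes (49.8% of all genes), from -2.59 (*Tgtp1*, 95% confidence interval -4.33 to -0.86) to -0.74 (*Gbp2*). No interaction was called (0.0253% of all genes were called lower), with limma adjusted p between 0.34 and 0.72. At an unadjusted limma p under 0.05 there were 4, namely *Tgtp1*, *Irgm2*, *Igtp* and *Irgm1*, against 10.8% of all genes. The median interaction of -1.12 was -0.74 without *Keap1* mutant library 4. It was -1.20 without compound mutant library 1, where *Tgtp1*, *Irgm2* and *Igtp* remained under an unadjusted limma p of 0.05 and *Irgm1* did not.

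Between the compound mutant and the *Trsp* knockout the differences were small and of both signs, from -0.56 (*Iigp1*) to 0.28 (*Gbp2*), with a median of -0.13. None was called, against 0.114% of all genes called higher and 0.456% called lower. The adjusted p values from limma were 0.53 or more, no gene had an unadjusted p under 0.05 (background 17.6%), and the 95% confidence intervals were widest for *Gbp6* (-1.64 to 1.46) and narrowest for *Irgm1* (-0.74 to 0.40). The median was 0.05 without *Trsp* knockout library 4, 0.07 without compound mutant library 4 and between -0.26 and -0.05 without any one of *Trsp* knockout libraries 1 to 3 or compound mutant library 3. The 10 differences ran from -0.44 to 0.08 without compound mutant library 1. The compound mutant was below the control for all 10 genes by fitted difference (51.4% of all genes), with a median of -0.63. None was called (0.076% of all genes were called lower), *Iigp1* alone had an unadjusted p under 0.05 (12.8%), and *Igtp* and *Iigp1* had groups apart in this direction (3.14% of all genes). *Iigp1* had the largest difference, -1.12 (limma adjusted p = 0.29). The median was -0.35 without control library 1, and *Tgtp2* and *Gbp2* were at 0.04 and 0.14 without compound mutant library 4. Without compound mutant library 1 the 10 differences ran from -0.998 to -0.47 with a median of -0.73, and limma gave no gene an unadjusted p under 0.05.

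A test of any difference among the 4 genotypes was passed by *Tgtp1* (limma F test, adjusted p = 0.0059), where 0.995% of all genes passed at 0.01. *Irgm2* (0.018) and *Igtp* (0.024) had an adjusted p under 0.05 in this test from limma, as did 3% of all genes. Without compound mutant library 1 the limma F test gave adjusted p values of 0.013 for *Tgtp1*, 0.033 for *Irgm2* and 0.047 for *Igtp*, so that none passed at 0.01. The genotype accounted for 76.2% of the variance of *Tgtp1*, 70.5% of that of *Irgm2* and 68.2% of that of *Igtp*, and for between 31.5% (*Gbp3*) and 58.8% (*Irgm1*) in the other 7, against a median of 26.7% over all genes tested.

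The 4 genes with the joined GAS and ISRE had differences between compound and *Keap1* mutant from -3.49 to -1.81, and the 4 members with a promoter entry and no joined form from -1.45 to -1.14. *Iigp1* and *Gbp6*, with no promoter entry, were at -1.61 and -1.88. The same order held between *Keap1* mutant and control, a comparison that shares the *Keap1* mutant libraries. There the genes with the joined form were at 1.31 to 2.60 and those with an entry and no joined form at 0.65 to 1.03. *Iigp1* was at 0.49 and *Gbp6* at 1.07. These are descriptions of 8 genes, with no test, and *Tgtp1* and *Tgtp2* share most of their sequence. The 4 genes with the joined form are all IRG genes of chromosome 11. Those with an entry and no joined form are *Irgm1* of chromosome 11 and the GBP genes *Gbp2*, *Gbp3* and *Gbp7* of chromosome 3. Motif, family and cluster thus mostly go together, and their parts were not tested. *Gm12185*, which holds the joined form and is no member, was at -1.52 (limma adjusted p = 0.029) and 1.41, with 3 to 59 reads per library.

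Livers of one genotype differed more in these genes than in most others. The SD within genotypes, pooled over the 4, was between 0.42 (*Irgm1*) and 1.16 (*Gbp6*) on the log2 scale, with a median of 0.76 over the 10 genes and of 0.299 over all genes tested. For 8 of the 10 it was above the 90th percentile of all genes, 0.655, and *Irgm2* (84.9th percentile) and *Irgm1* (71.1st percentile) were below that. The SDs by genotype and family are given as values with no test. The IRG genes had a median SD of 0.67 in the control, 0.40 in the *Trsp* knockout, 0.93 in the *Keap1* mutant and 0.24 in the compound mutant. For the GBP genes these medians were 0.59, 0.82, 1.04 and 0.81, and the median over all genes tested was between 0.22 and 0.27. Single genes overlapped between the families in the compound mutant, with SDs from 0.07 to 0.98 for the IRG genes and from 0.42 to 0.93 for the GBP genes. Those compound mutant medians were 0.21 and 0.94 without library 1.

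**Figure D3:**
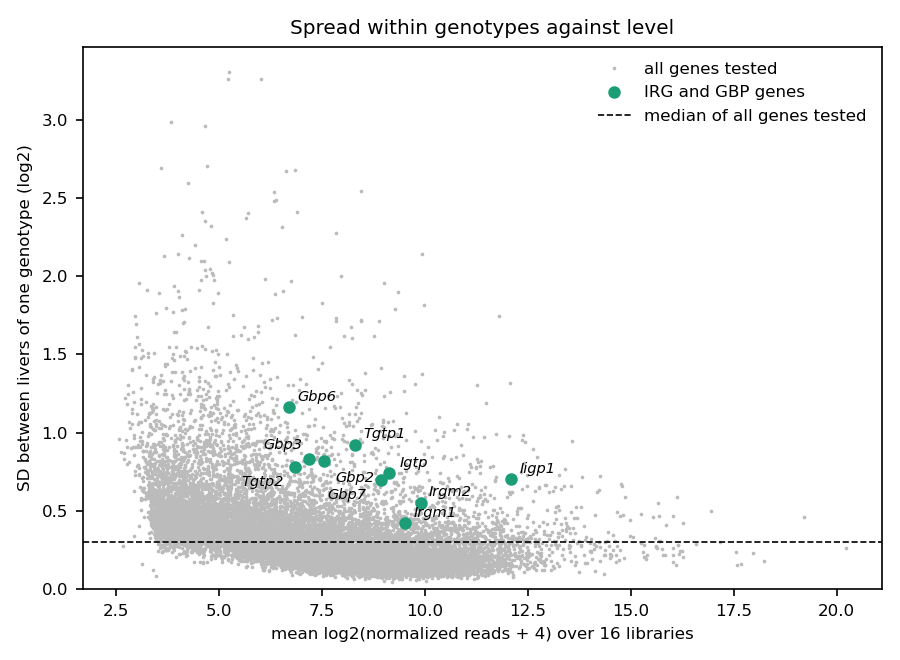
SD between livers of one genotype (pooled over 4 genotypes, log2 scale) against the mean level, for all genes tested (grey) and the 10 IRG and GBP genes (green), with the median SD of all genes tested as a dashed line. All 10 genes lie above the dashed line, from 0.42 for *Irgm1* to 1.16 for *Gbp6*.

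The same libraries were high or low for most of the genes. *Keap1* mutant library 4 was the highest of all 16 for 10 of 10 genes and *Keap1* mutant library 2 the second highest for 10 of 10. Their mean deviations from the genes' means were 2.27 and 1.73 on the log2 scale, against 0.29 and 0.40 for *Keap1* mutant libraries 1 and 3. Among the controls, libraries 1 and 2 were the upper pair for 10 of 10 genes, with mean deviations of 0.79 and 0.42, and libraries 3 and 4 were at -0.56 and -0.59. In the *Trsp* knockout, libraries 3 and 4 were the upper pair for 10 of 10 genes (-0.16 and 0.09), above libraries 1 and 2 (-0.996 and -1.08).

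In the compound mutant, the IRG genes deviated by between -0.37 and -1.14 on average in every compound mutant library. The GBP genes deviated by 0.18 in library 3 and by -1.51 in library 4, which was the lowest of all 16 for 7 of the 10 genes. The depth of these libraries was similar, with 15419380 reads in compound mutant library 4, 16676796 in *Keap1* mutant library 4 and 15479158 in *Keap1* mutant library 2.

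**Figure D4:**
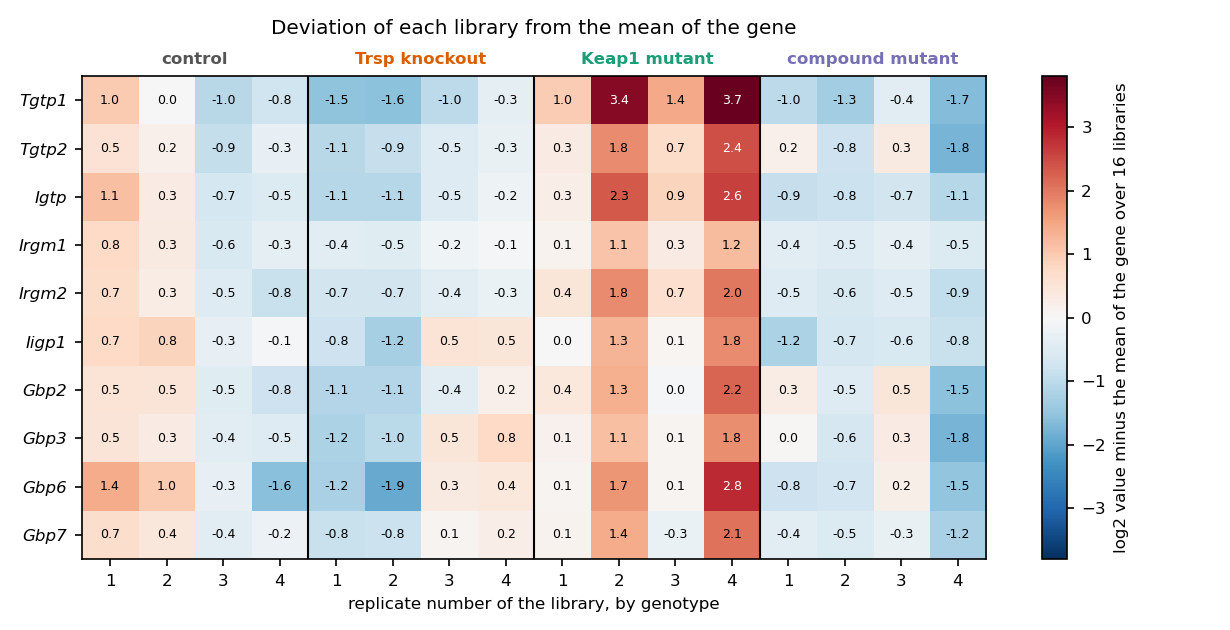
Deviation of each library from the mean of the gene over 16 libraries, in log2 units, for the 10 IRG and GBP genes (rows) and the libraries by genotype and replicate number (columns), with red above and blue below the mean. *Keap1* mutant libraries 2 and 4 are red in every row, up to 3.74 for *Tgtp1*, and compound mutant library 4 is blue in every row.

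Of a list of 26 other IRG, GBP and large interferon-induced GTPase genes, 22 were tested. Between compound and *Keap1* mutant, 21 of the 22 were below 0, with a median of -1.24, none was called and *Gm4951* and *Gm12185* were lower at an adjusted p under 0.05. That limit was met on the lower side by 0.279% of all genes. An unadjusted limma p under 0.05 was reached by 14 of the 22, against 13.6% of all genes. All 22 were above 0 between *Keap1* mutant and control, with a median of 0.77 and none called. The 3 with the highest levels were *Gm4951*, *F830016B08Rik* and *Gvin1*. *Gm4951*, an IRG gene, was at 10.62, 10.54, 10.26 and 10.85 in the *Keap1* mutant and 8.66, 9.51, 9.05 and 6.90 in the compound mutant (log2 fold change -2.04, limma adjusted p = 0.023, or 0.063 without compound mutant library 1), while its difference between *Keap1* mutant and control was 0.12. *F830016B08Rik*, the neighbour of *Iigp1*, was at 10.18, 10.43, 9.92 and 9.70 against 7.86, 8.53, 8.77 and 5.04 (limma adjusted p = 0.069). *Gvin1*, a very large GTPase, was at -0.56 (limma adjusted p = 0.65).

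A pair of GBP genes from that list was singled out after their values were seen. *Gbp2b*, which lies between *Gbp3* and *Gbp2*, had 41, 43, 5 and 6 reads in the control, 35, 4, 20 and 43 in the *Trsp* knockout, 236, 766, 140 and 1076 in the *Keap1* mutant and 114, 133, 147 and 35 in the compound mutant. Its groups were apart between *Keap1* mutant and control (log2 fold change 4.09, limma adjusted p = 0.055). *Gbp4* had 0 reads in all 4 controls, 51, 35, 37 and 46 in the *Keap1* mutant, and reads in just one *Trsp* knockout library (14) and one compound mutant library (79). How much of their transcripts *Gbp2b* and *Gbp4* share with other genes was not measured. Whether these values depend on how Salmon divided the reads was not tested.

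Of 16 genes of interferon-gamma reception and signalling, 15 were tested and none was called between compound and *Keap1* mutant. In this comparison 11 were below 0 with a median of -0.21. At an unadjusted limma p under 0.05 there were 5 of the 15, against 13.6% of all genes, and 3 without compound mutant library 1. Of the 15, 1 was lower at an adjusted p under 0.05, against 0.279% of all genes. *Ifng* itself was not analysed here. The receptor-bound kinase *Jak1* and the phosphatase *Ptpn11*, among the 3 with the highest levels, were at 0.18 and 0.05.

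Of 30 other interferon-gamma-inducible genes, 27 were tested, and 25 of them were below 0 between compound and *Keap1* mutant, with a median of -0.81. *H2-K1* (-1.77, limma adjusted p = 0.00027) and *H2-D1* (-1.21, limma adjusted p = 0.0015), heavy chains of MHC class I, and *Cd74* (-1.58, limma adjusted p = 0.0078), the invariant chain of MHC class II, were called lower. Among all genes tested, 0.101% were called lower. An unadjusted limma p under 0.05 was reached by 16 of the 27 (15 without compound mutant library 1), against 13.6% of all genes. When one library was left out in turn, *H2-K1* and *H2-D1* were called in all 16 fits, and *Cd74* in 4 (limma adjusted p from 0.0023 to 0.039). Without compound mutant library 1, *H2-K1* was at -1.72, *H2-D1* at -1.21 and *Cd74* at -1.50 (limma adjusted p = 0.035), and the median of the 27 was -0.88. *Keap1* mutant libraries 2 and 4 did not stand out in *H2-K1*, which was at 13.14, 13.09, 12.91 and 12.69 in the 4 *Keap1* mutant libraries and 11.05, 11.10, 10.99 and 11.63 in the compound mutant. Of 32 type I interferon genes, all tested, 30 were below 0 with a median of -0.54, and *Usp18*, which removes the ubiquitin-like ISG15 and restrains the type I receptor, was called lower (-1.46, limma adjusted p = 0.0065). An unadjusted limma p under 0.05 was reached by 10 of the 32 (11 without compound mutant library 1). *Usp18* was called in 8 of the 16 fits that left out one library (limma adjusted p from 0.0048 to 0.033), the one without compound mutant library 1 among them (-1.61). The 14 autophagy conjugation genes, whose products guide IRG and GBP proteins to their targets, had a median of 0.14. Of them, 11 were above 0 and none was called. At an unadjusted limma p under 0.05 there were 5 of the 14 (4 without compound mutant library 1), against 13.6% of all genes. Between *Trsp* knockout and control there were likewise 5, against 11% of all genes, with 11 above 0, a median of 0.15 and 0 called. Between *Keap1* mutant and control limma called 0 genes of these 5 lists, and an unadjusted p under 0.05 was reached by 9 of the 22 other GTPase genes, 4 of the 15 signalling genes, 11 of the 27 interferon-gamma-inducible genes, 1 of the 32 type I genes and 1 of the 14 autophagy genes, where 9.07% of all genes tested reached it.

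**Figure D5:**
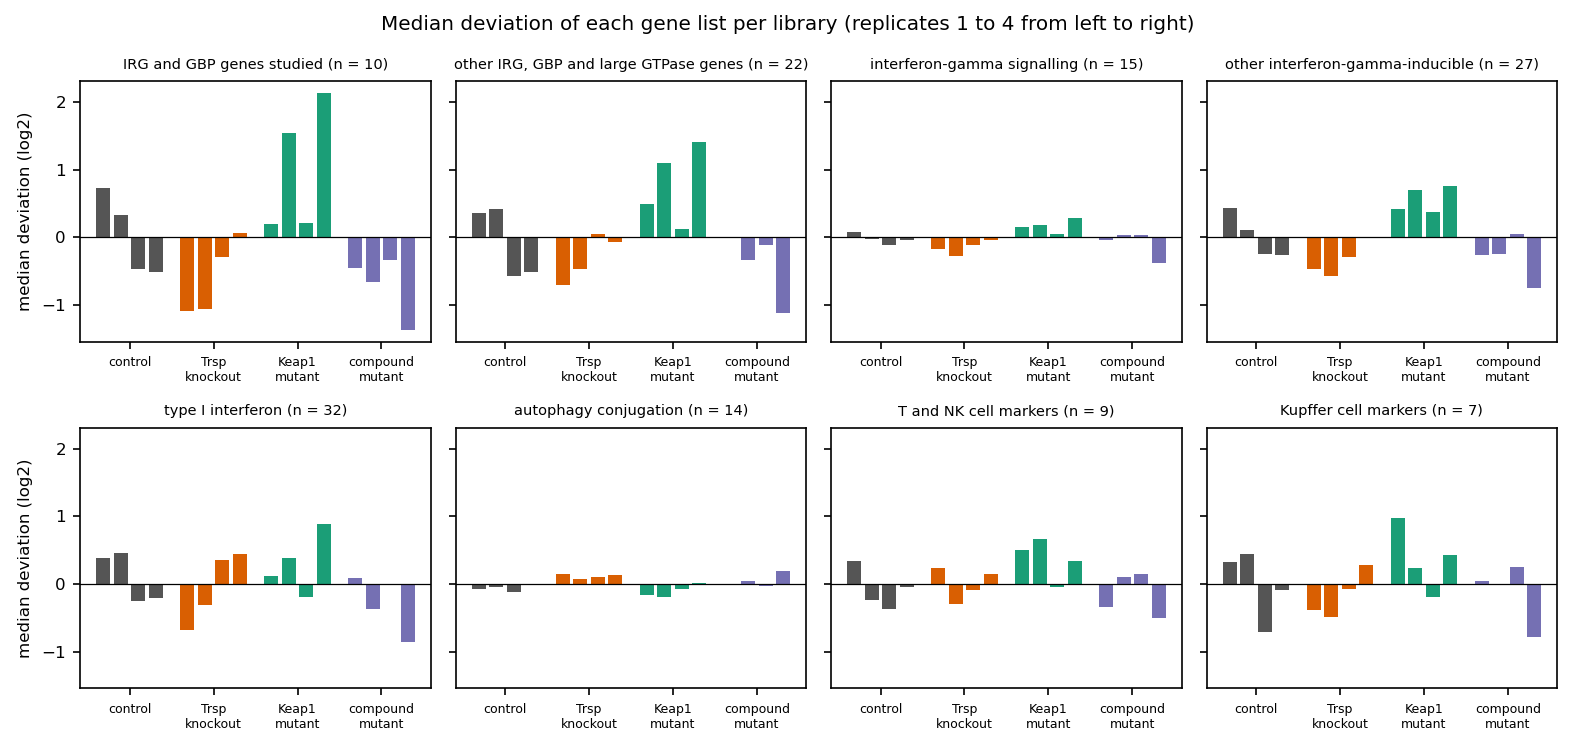
Median deviation of 6 gene lists and 2 cell marker lists from their means over 16 libraries (log2), with one bar per library, replicates 1 to 4 from left to right in each genotype, and n for the number of genes. The IRG and GBP genes reach 2.13 in *Keap1* mutant library 4, and the autophagy genes stay between -0.20 and 0.19.

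Markers of immune cells moved in part with these differences, and not all lists went the same way. All 9 of 12 T and NK cell markers that were tested were lower in the compound than in the *Keap1* mutant by fitted difference (median -0.65), none was called, and single markers had at most 68 reads in a library, with *Prf1* at 0 in at least one. The summed level of all 12 T and NK cell markers was 118 to 216 normalized reads in the control and 105 to 184 in the *Trsp* knockout. It was 162 to 308 in the *Keap1* mutant and 91.0 to 169 in the compound mutant. All 7 Kupffer cell markers were likewise lower (median -0.63, none called), with sums of 6737 to 16046 in the *Keap1* mutant and 4227 to 9194 in the compound mutant. *Keap1* mutant library 1, with the highest Kupffer cell sum, was the lowest *Keap1* mutant library for 6 of the 10 GTPase genes. Control libraries 1 and 2, the upper pair for all 10 genes, each summed to 10724, against 4830 and 7668 in libraries 3 and 4. *Trsp* knockout library 4 (10226) had the highest sum of its genotype and compound mutant library 4 (4227) the lowest. These libraries were in turn the highest and the lowest of their genotypes for 9 of the 10 genes. All 6 B cell markers were above 0 with the substitutions by fitted difference, with none called, at a median of 1.49 in the *Keap1* mutant against control and of 1.18 in the compound mutant against *Trsp* knockout. All 6 neutrophil markers tested were above 0 in the compound mutant against the *Trsp* knockout (median 2.02, none called), where the GTPase genes differed by a median of -0.13. Between compound and *Keap1* mutant, 5 of these 6 neutrophil markers were above 0 (median 0.44, none called). In that comparison all 6 B cell markers were below 0 (median -0.34), as were 4 of 6 dendritic cell markers (median -0.08), with none called. The 6 hepatocyte markers were lower in the compound than in the *Keap1* mutant (median -0.57, none called). The part of the cell makeup in the levels of the GTPase genes was not tested.

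The genes whose pattern was most like the family's were found by the correlation of each of 15771 other tested genes with the mean of the members' standardized log2 values over the 16 libraries, which share genotype and library. Among the first 8, Pearson r was 0.985 for *Ifi47* (Spearman rho 0.979), and the others named here were *Gm12250* (0.984), *BC023105* (0.962), *Tap1* (0.961), *Gbp10* (0.949), *Psmb9* (0.949) and *Zbp1* (0.935). *Ifi47*, *Gm12250* and *Gbp10* are GTPase genes of the same families, *Tap1* encodes a peptide transporter of antigen presentation, *Psmb9* a subunit of the immunoproteasome and *Zbp1* a sensor of Z-form nucleic acids. Without *Keap1* mutant libraries 2 and 4, those farthest from the median of the members' mean, r was between 0.899 (*Tap1*) and 0.978 (*Ifi47*) for these 7. When each gene was centred on its genotype means, *Ifi47* (r = 0.985), *Gm12250*, *Tap1* and *Zbp1* were again among the first 8. *Gbp10* shared 88.8% of its 31-base words with other genes, mostly with *Gm43302*, the gene that the member *Gbp6* also shared most with. The values of *Gbp10* therefore also depend on how Salmon divided the reads. These correlations describe the 16 libraries and carry no test.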

How the data were processed

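Liver RNA from mice labelled male was depleted of ribosomal RNA and made into 16 directional libraries. The authors estimated reads per transcript with Salmon against GENCODE mouse transcripts and passed them through iDEP. The values deposited are log2 of reads divided by a library size factor plus 4; reversing this gave whole reads (within 0.05) for 100% of low values. The build of the transcripts may differ from GRCm38.p6, so gene coordinates are given for promoter windows alone. Rows without an identifier (369 of 18578, 0.274% to 0.627% of reads) were left out.

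Genes with at least 10 normalized reads in at least 4 libraries were tested with limma 3.58.1 (R 4.3.3; a mean per genotype, all 16 libraries, eBayes with trend, no covariate, Benjamini-Hochberg adjustment over 15781 genes). Fold changes are on the log2(normalized reads + 4) scale, which understates changes of low genes. The design assumed counts or TPM, and limma was used since the unit was log2. On simulated data for *Trsp* knockout against control, 200 of 200 genes changed by 2 (log2) were called among 15734. Whether a change of that size would be called at the spread of the 10 GTPase genes was not tested. Their median SD within genotypes was 0.76, against 0.299 over all genes tested. Tables were made with pandas 2.3.3 in Python 3.11.15, correlations with scipy 1.17.1, and plots with matplotlib 3.10.9.

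The text names the 10 members, listed genes that were called or else the 3 with the highest level of each list, and the genes among the 8 most like the members, apart from one item that is not reported here. The members and lists were chosen with earlier results of these data known. Alternatives were other scalings, pseudocounts of 0.5 and 1, filters, the compared groups alone, eBayes without trend, limma voom on recovered reads, a block on replicate number, fits without single libraries, and other thresholds.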

Additional observations from a re-analysis of the deposited data

Results flagged for a closer look

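In 56 groups of 4 libraries (the 10 GTPase genes and the 4 genes that check the labels, in 4 genotypes), 2 had one library far from the other 3 by Dixon's ratio past its 95% critical value, where chance gives about 2.8. None was among the 40 groups of the GTPase genes. The ratio looks for a single library apart, so it is not made to flag a pair of high libraries such as *Keap1* mutant libraries 2 and 4. *Xist* was at 14.71 in compound mutant library 1, with the other 3 compound mutant libraries between 4.59 and 5.76 on the log2 scale. *Nqo1*, a target of NRF2, was at 5.40 in *Keap1* mutant library 3, below the other *Keap1* mutant libraries, which lay between 5.59 and 5.61.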

How the results depend on the processing

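Of 1682 recomputed fold changes of the 10 genes, 1663 kept the sign of the reported value. The 19 that did not belonged to 9 of 60 pairs of gene and comparison, all with a reported size of at most 0.38 and less than its standard error. All 282 recomputed differences between compound and *Keap1* mutant were below 0 and all 282 between *Keap1* mutant and control above 0. The call of *Tgtp1* between compound and *Keap1* mutant, the single called member, was lost (0 members) with the compared groups alone (limma adjusted p = 0.043), eBayes without trend (0.017), limma voom (0.017) and the replicate block (0.032), and by the F test 0 members passed without trend and with the block. At an adjusted p under 0.05, 3 members were called lower and 3 passed the F test. In the other 5 comparisons 0 members were called under every alternative run, limma voom included. Leaving out one library gave 0 to 1 called members and 0 to 2 by the F test. Replicate numbers did not pair the libraries: 4 of 24 same-numbered pairs correlated above 0.1 (range -0.315 to 0.31) and 2 of 16 libraries correlated best with their own number. With the block, 6 genes of all were called lower between compound and *Keap1* mutant. The fit of the compared groups alone was not run for the interaction.

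Counts over all genes, higher then lower, moved as follows. Between compound and *Keap1* mutant (11 and 16) library totals gave 19 higher, eBayes without trend 10 lower, an adjusted p under 0.05 gave 31 and 44, and leaving out one library 1 to 15 and 4 to 26. Between *Keap1* mutant and control (1 and 1) library totals gave 2 lower, voom 0 lower, the limit of 0.05 gave 4 and 7, and leaving out one library 1 to 2 and 0 to 4. Between *Trsp* knockout and control (30 and 4) the limit of 0.05 gave 50 and 10, and leaving out one library 2 to 5 lower. Between compound mutant and *Trsp* knockout (18 and 72) library totals gave 28 higher, voom 11 higher, the compared groups alone 34 lower, the limit of 0.05 gave 64 and 125, and leaving out one library 3 to 34 and 41 to 137. Between compound mutant and control (9 and 12) the compared groups alone gave 5 lower, the limit of 0.05 gave 21 and 46, and leaving out one library 1 to 9 and 3 to 54. For the interaction (5 and 4) a pseudocount of 0.5 gave 1 lower, a pseudocount of 1 gave 2 lower, a filter at 50 normalized reads 3 higher, voom 1 lower, the limit of 0.05 gave 9 lower, and leaving out one library 0 to 7 and 2 to 6. The cause of these moves was not tested.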
